A study of Mus musculus with 2 samples.

Results

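The distal miRNA cluster of the imprinted Dlk1-Dio3 domain was examined in the embryonic mouse face. Its members were chosen by position alone: the plus-strand miRNA genes between positions 109700000 and 109760000 of mouse chromosome 12 (assembly mm10) that could be read from the count columns. That gave 38 genes of the 1977 miRNA features measured. Of these, 34 were counted in rows of their own, and 4 (Mir409, Mir376a, Mir299a and Mir380) were read from the opposite-strand counts of minus-strand genes annotated at the same place. They lie at chr12:109709060-109747960, from Mir379 to Mir3072, a span of 38901 bp. MicroRNA libraries had been made from total RNA of the facial prominences, the tissue buds that form the face and jaws, of strain B6NCrl at embryonic day 14.5. There were 2 biological replicates, no treatment or genetic change, and 1 group only. The data therefore give levels in a single tissue and the spread between 2 libraries, with no contrast between conditions.

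The Dlk1-Dio3 domain is imprinted: its noncoding RNAs, including Meg3, Rian and Mirg, come from the maternal chromosome, and its protein-coding genes from the paternal one. The distal cluster, also known as the miR-379/miR-410 cluster, is found in placental mammals and holds many hairpins of related sequence that arose by tandem duplication. Its transcript is cut into hairpins by the Drosha complex, and each hairpin can give 1 mature miRNA from its 5′ arm (5p) and 1 from its 3′ arm (3p). Target choice depends mainly on the seed, the bases just after the first base of the mature strand. In mice the cluster is best known in the placenta, the newborn liver and the brain, where miR-134 limits dendritic spine growth through Limk1.

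The mature sequences of the leading members are given first because the counts per hairpin gene stand for both arms together. Each is written 5′ to 3′ from RefSeq (GRCm38.p6), with the seed, bases 2 to 8, in capitals. The first group holds Mir379 and its neighbours Mir411, Mir299a and Mir380, with Mir1193, which has a seed in common with Mir379.
miR-379-5p: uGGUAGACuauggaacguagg
miR-1193-5p: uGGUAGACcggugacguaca
miR-411-5p: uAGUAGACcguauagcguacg
miR-299a-5p: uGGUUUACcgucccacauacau
miR-380-5p: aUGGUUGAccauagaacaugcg
miR-379-3p: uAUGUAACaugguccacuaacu
miR-411-3p: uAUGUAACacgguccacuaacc
miR-380-3p: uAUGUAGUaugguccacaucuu
miR-299a-3p: uAUGUGGGacgguaaaccgcuu

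The second group holds the other leading members, with miR-300-3p beside miR-381-3p because the pair differ at few bases. Not every arm of these genes is printed, and for Mir487b the source lists the 5p arm only.
miR-487b-5p: uGGUUAUCccuguccucuucg
miR-381-3p: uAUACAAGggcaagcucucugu
miR-300-3p: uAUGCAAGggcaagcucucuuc
miR-409-5p: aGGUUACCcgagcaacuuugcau
miR-409-3p: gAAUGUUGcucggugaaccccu
miR-376a-3p: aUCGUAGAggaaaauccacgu
miR-369-3p: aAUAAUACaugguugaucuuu
miR-154-3p: aAUCAUACacgguugaccuauu
miR-541-5p: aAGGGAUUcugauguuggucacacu
miR-382-5p: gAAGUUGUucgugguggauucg

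The cluster made up a large part of the gene-strand miRNA counts of the face. Its summed level was 114321 CPM (counts scaled by the gene-strand total of each library) in replicate 1 and 117167 CPM in replicate 2, a mean of 115744 ± 2013 (SD, n = 2). This is 11.4% and 11.7% of the gene-strand total. With the 4 opposite-strand genes added to the total as well, replicate 1 gave a share of 11.2%, with bounds of 11.1 and 11.2 (95% Wilson interval), and replicate 2 one of 11.5%, with bounds of 11.4 and 11.5. The 34 genes counted on their own strand held 9.21% (9.17 to 9.24) and 9.48% (9.45 to 9.50). The libraries had 2719153 and 6602050 gene-strand counts, so these intervals are narrow, and they cover counting error only. Reads placed at several sites, 29.8% and 28.5% of all reads, are in neither the members' counts nor the totals. Their effect on the share and on ranks among features was not tested. In bulk tissue, fewer cells with a miRNA and less of it per cell cannot be told apart.

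Of the 38 members, 36 had counts in both libraries, and the mean levels ran from 24405 CPM in Mir411 down to 1.05 CPM in Gm27379. At 1000 CPM or above there were 15 members, which held 95.4% of the cluster's counts, and 16 lay between 100 and 1000 CPM, with 4.54%. Mir3072 at 44.8 CPM and Mir758 at 35.2 CPM lay between 10 and 100. Mir1197 (5.12 CPM), Mir544 (3.94 CPM) and Gm27379 were below 10, the last with 2 and 9 counts. Mir654 and Mir453 had 0 counts in both libraries, which allows up to 3 counts, or 1.10 CPM in replicate 1 and 0.454 CPM in replicate 2. The median member was at 453 CPM, and Mir411 was 53.9-fold above it. Across the series, 25 features were at 10000 CPM or above, and 3 of them (12%) were members. At 1000 CPM or above members were 15 of 106 (14.2%).

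Mir411 and Mir487b led the cluster. Mir411 (chr12:109710175-109710256) was at 23037 CPM in replicate 1 and 25773 CPM in replicate 2, a mean of 24405 ± 1935. It ranked 11 among all features of the series. Mir487b (chr12:109727333-109727414) was at 18986 and 23713 CPM, a mean of 21350 ± 3343, and ranked 13. The 2 genes lie 17076 bp apart, and together they held 36.8% of the cluster in replicate 1 and 42.2% in replicate 2. Both were higher in replicate 2. Mir411 was 1.21-fold and 1.09-fold above Mir487b, and their means differed by less than the SD of Mir487b over the replicates.

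The next 4 members lay close together in level. Mir379 (chr12:109709060-109709125), the first gene of the cluster, was at 10574 and 9458 CPM. Mir381 (chr12:109726822-109726896) was at 9725 and 8141 CPM. Mir409 (chr12:109743158-109743236) was at 6994 and 9510 CPM, and Mir376a (chr12:109723781-109723848), of a family known for A-to-I editing of its primary transcripts, was at 8285 and 6558 CPM. The replicates put these 4 genes in different orders: Mir409 was the lowest of them in replicate 1 and the highest in replicate 2. Their means, 10016 ± 789, 8933 ± 1120, 8252 ± 1779 and 7421 ± 1221, differ between neighbours by less than the larger SD of each pair.

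Mir369 and Mir541 formed the next step. Mir369 (chr12:109743418-109743496), whose 3p arm is known from work on AU-rich elements of the Tnf mRNA, was at 5771 and 6178 CPM. Mir541 (chr12:109742409-109742498) was at 6198 and 5180 CPM. The values of these 2 genes overlapped. Mir382 (chr12:109733771-109733846) followed at 4856 and 4696 CPM, below all values of Mir369 and Mir541.

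Mir299a (chr12:109710638-109710700) was at 3913 and 3445 CPM. Mir380 (chr12:109711803-109711863) was at 3037 and 2892 CPM. Mir154 (chr12:109738433-109738498) was at 2693 and 1934 CPM. These 3 genes kept the same order in both replicates, with no overlap of values. The 12 highest members of each replicate held 91.0% of the cluster in replicate 1 and 91.9% in replicate 2, and the replicates had 11 of these members in common. The exception was Mir154, which was among them in replicate 1 and stood at rank 13 in replicate 2, below Mir1193 at 2086 CPM.

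**Figure D1:**
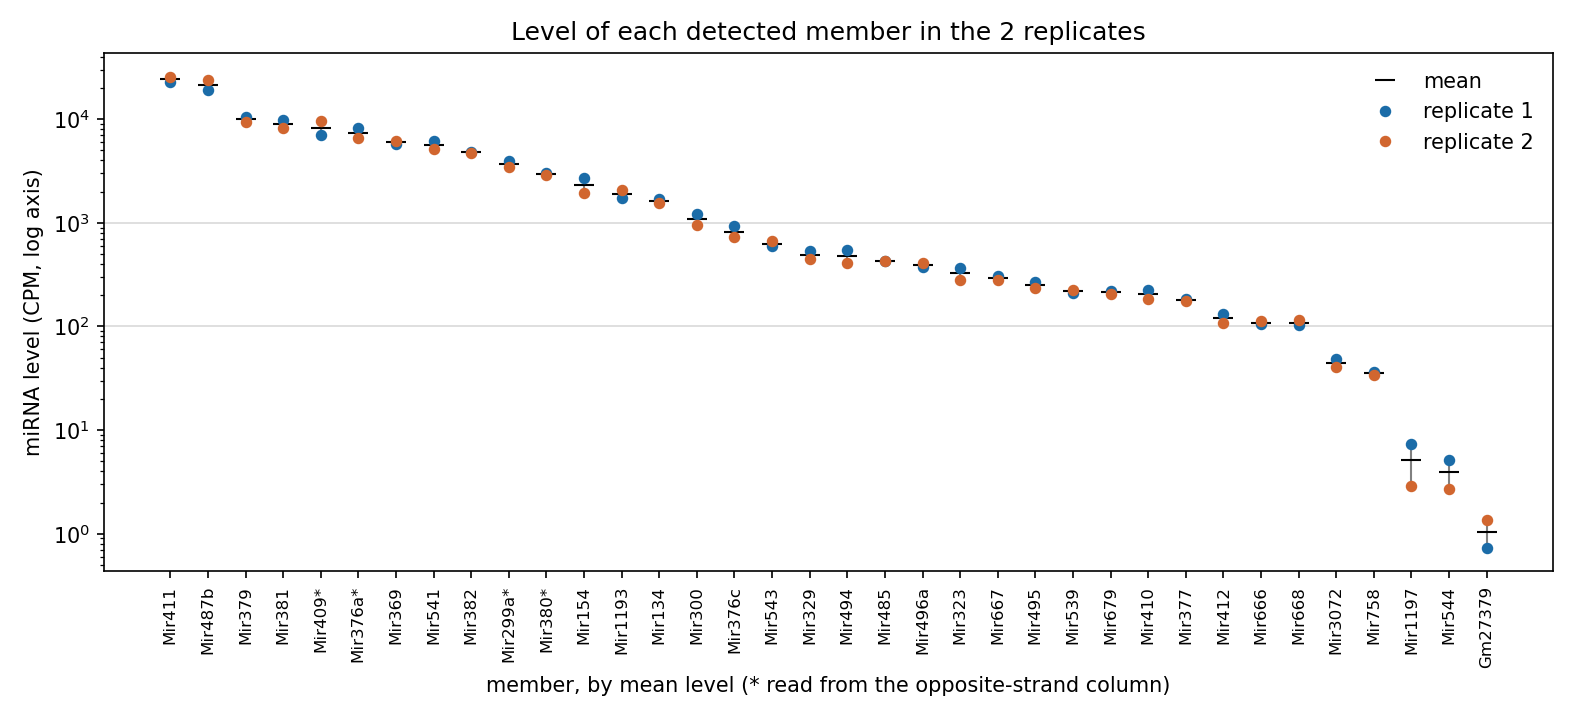
Level of each of the 36 detected members (y axis, CPM on a log scale) in replicates 1 and 2, ordered by their mean, which the short bar marks. The 15 members above 1000 CPM run from Mir411 at 24405 CPM to Mir300 at 1084 CPM, with a drop between Mir487b at 21350 CPM and Mir379 at 10016 CPM, and the replicates lie farthest apart for Mir1197, Mir544 and Gm27379.

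The remaining members above 1000 CPM were Mir1193, Mir134 and Mir300. Mir1193 was at 1721 and 2086 CPM (1903 ± 258). Mir134, the dendritic spine regulator, was at 1702 and 1565 CPM (1633 ± 97.1), and Mir300 at 1209 and 958 CPM (1084 ± 178). The 16 members between 100 and 1000 CPM ran from Mir376c (922 and 723 CPM) to Mir668 (102 and 115 CPM). Among them, Mir494 was at 552 and 406 CPM, and Mir485, which acts on synaptic vesicle protein mRNA in neurons, was at 427 and 428 CPM. Mir323 was at 367 and 282 CPM. The other members of this range were Mir543, Mir329, Mir496a, Mir667, Mir495, Mir539, Mir679, Mir410, Mir377, Mir412 and Mir666, with means from 109 to 631 CPM.

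Levels changed sharply from gene to gene along the cluster. Of 35 pairs of detected neighbours, the median pair differed 6.63-fold and 12 differed at least 10-fold. Mir409, Mir412 and Mir369 show this at short range: Mir412 lies 52 bp after Mir409 and 49 bp before Mir369. Mir409 was 53.1-fold above Mir412 in replicate 1 and 87.7-fold in replicate 2. Mir369 was 43.8-fold and 57.0-fold above it. The middle gene of the 3 was thus far below both flanking genes in both libraries.

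Other steep steps lay around Mir487b and Mir380. Mir539, which begins 714 bp after Mir487b, was at 211 and 225 CPM, 90.1-fold and 105-fold lower. Mir381, which ends 436 bp before Mir487b, was 1.95-fold and 2.91-fold lower. Mir1197 lies 453 bp after Mir380 and was 413-fold and 1005-fold lower, on only 20 and 19 counts. The closest pair, Mir679 and Mir1193, have 20 bp between them, and Mir1193 was 7.80-fold and 10.2-fold higher. Short distance did not mean similar level: across the 35 pairs, the levels of neighbours had a Spearman correlation of 0.17. Correlations here are across genes of the same libraries, which are not independent replicates. Mature miRNA reads span the whole molecule, so CPM was not divided by length. CPM was not calibrated against known RNA amounts, and hairpin GC content had a Spearman correlation of -0.37 with level over the 38 members. The part of base composition in these steps was not tested.

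**Figure D2:**
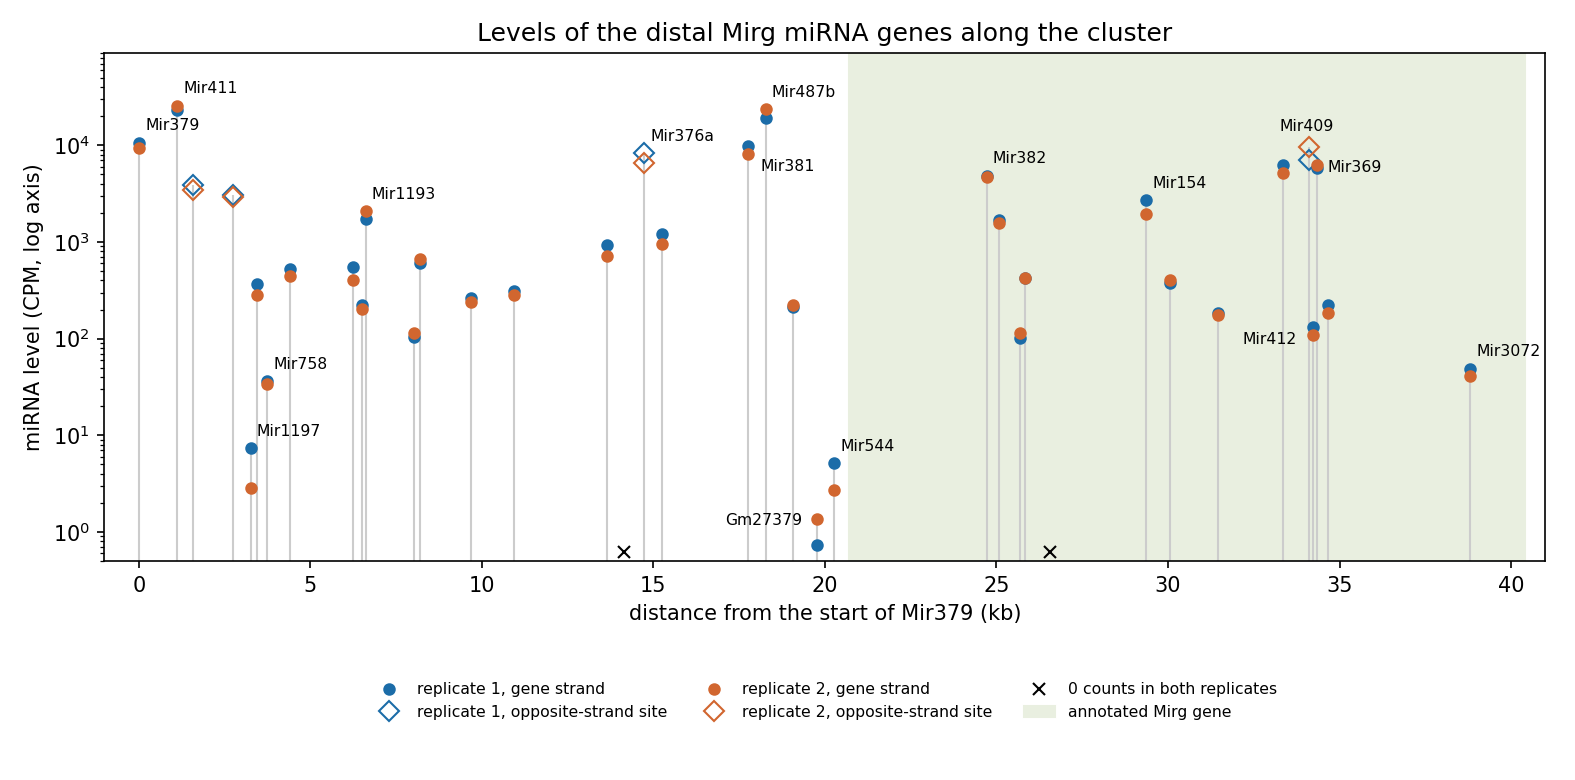
Level of each member (y axis, CPM on a log scale) against its distance from the start of Mir379 (x axis, kb) in replicates 1 and 2. Filled points are genes counted on their own strand, open diamonds the 4 genes read from opposite-strand counts, crosses the 2 genes at 0 and the shaded band the annotated Mirg gene. Mir412 at 120 CPM sits between Mir409 at 8252 CPM and Mir369 at 5975 CPM.

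High and low members occurred on both sides of the annotated start of Mirg (chr12:109729764-109749460). The 24 genes before it, in no annotated host gene, summed to 85632 ± 1435 CPM, 74.0% of the cluster, with a median of 483 CPM and 9 genes at 1000 CPM or above. The 14 genes inside Mirg summed to 30112 ± 578 CPM, 26.0% of the cluster, with a median of 409 CPM and 6 genes at 1000 CPM or above. Rank of position and rank of level had a Spearman correlation of -0.15 over the 38 members. Inside Mirg, 9 members overlap an exon, with a median of 204 CPM, and 5 lie in introns (Mir453, Mir154, Mir496a, Mir541 and Mir409), with a median of 2313 CPM. The ranges overlapped fully: the exonic genes ran from 44.8 CPM (Mir3072) to 5975 CPM (Mir369), and the intronic ones from 0 (Mir453) to 8252 CPM (Mir409).

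The 4 genes read from opposite-strand counts were all among the 12 highest members. They summed to 22229 CPM in replicate 1 and 22405 CPM in replicate 2, a mean of 22317 ± 124, or 19.4% and 19.1% of the cluster. The annotated minus-strand genes at these places are Gm24321 (Mir409), Gm25252 (Mir376a), Mir299b (Mir299a) and Gm25750 (Mir380). Their opposite strand had 19018 and 62788 counts at Mir409, 22527 and 43298 at Mir376a, 10641 and 22742 at Mir299a, and 8259 and 19092 at Mir380. On their own strand, Gm24321, Gm25252 and Gm25750 had 0 counts in both libraries and Mir299b had 19 and 50. Conversely, the opposite strand of the 34 other members had 0 counts in both libraries. These 4 places gave 48.4% and 49.7% of all opposite-strand counts in the libraries. The gene-strand column alone would thus have missed 4 of the 12 leading members.

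Sequence relations within the cluster were mostly between seeds that differ. Of the 38 members, 37 had a mature entry in RefSeq, giving 69 arms with 64 distinct seeds. Both arms were listed for 32 members, and Mir487b had its 5p arm only. Seeds of arms that are not listed could not be compared. Among the listed arms, only 5 seeds were held by arms of more than 1 member, each by 2 members. The seed AUGUAAC is in miR-379-3p and miR-411-3p, whose genes summed to 34421 ± 1147 CPM. These 2 arms agree at 20 of 22 bases, with the differences U10C and U22C (positions from the 5′ end, the base of miR-379-3p first). The seed GGUAGAC is in miR-379-5p and miR-1193-5p, whose genes summed to 11919 ± 530 CPM. Mir379 thus has a seed partner in the cluster for each of its arms, and a different one for each.

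The other 3 shared seeds belonged to lower genes. Mir494 and Mir410 have GGUUGUC in their 5p arms and summed to 683 ± 133 CPM. Mir453 and Mir496a have GGUUGCC, and the 390 ± 23.5 CPM of this pair came from Mir496a alone, since Mir453 was at 0. Mir1197 and Mir758 have GGUUGAC and summed to 40.4 ± 4.81 CPM. None of the 5 seeds occurred in an arm of another mouse gene of the RefSeq table. Since a count covers both arms of a hairpin, these sums can include reads of arms without the seed. Reads placed at several sites are not counted, so the sums are not strict upper limits for the amount of each seed.

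Several arms were close in sequence and still had different seeds. miR-300-3p and miR-381-3p agree at 19 of 22 bases, and the change G4A lies in the seed (the base of miR-300-3p first). Their genes differed in level, with Mir381 8.04-fold and 8.50-fold above Mir300. miR-154-3p and miR-369-3p agree at 17 of 21 bases, with C4A in the seed, and Mir369 was 2.14-fold and 3.19-fold above Mir154. The 3p arms of Mir379 and Mir380 agree at 16 of 22 bases, with A7G and C8U in the seed. Of the 69 arms, 12 have their seed in a mouse miRNA that is not a member. For 2 of them that miRNA is annotated in the same window: miR-376b-5p for miR-376c-5p, and miR-299b-3p for miR-299a-3p. miR-1193-3p has the seed of miR-370-5p, whose gene lies in the same domain before the window. The others include miR-411-5p with miR-7229-5p, miR-410-3p with miR-344d-3p and miR-344e-3p, and miR-329-3p with miR-362-3p. As first base, U stood in 43.5% of the member arms and in 40.8% of 1610 other arms, A in 37.7% against 25.0%, and C in 5.80% against 21.4%.

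A short stretch of letters recurs in part of the cluster's hairpins. The letters UUCGCUU, which of all 7-base stretches lay in the largest number of member hairpins and were picked for that, occurred in 10 of 35 (28.6%), against 2 of 970 other mouse hairpins (0.206%) and none of the proximal genes of the domain. The transcribed strand alone was searched. In 9 of the 10 hairpins the stretch overlaps the end of the 5p arm, and in Mir329 it begins at base 3 of the hairpin and overlaps no arm. Hairpins from both ends of the level range are shown, with the stretch in capitals, from the plus strand of GRCm38.p6.
Mir487b, chr12:109727333-109727414: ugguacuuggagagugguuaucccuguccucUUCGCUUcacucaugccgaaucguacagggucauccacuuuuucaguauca
Mir369, chr12:109743418-109743496: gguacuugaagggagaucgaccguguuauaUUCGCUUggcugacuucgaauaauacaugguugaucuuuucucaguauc
Mir382, chr12:109733771-109733846: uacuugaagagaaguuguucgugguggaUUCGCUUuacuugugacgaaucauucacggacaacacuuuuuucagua
Mir154, chr12:109738433-109738498: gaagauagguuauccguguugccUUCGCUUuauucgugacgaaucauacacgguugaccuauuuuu
Mir410, chr12:109743715-109743795: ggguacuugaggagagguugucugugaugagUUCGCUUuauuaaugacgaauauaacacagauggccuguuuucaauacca
Mir377, chr12:109740510-109740577: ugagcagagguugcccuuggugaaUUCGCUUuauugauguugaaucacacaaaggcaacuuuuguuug

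The 10 genes with the stretch were Mir487b, Mir369, Mir382, Mir154, Mir543, Mir329, Mir323, Mir495, Mir410 and Mir377. Their levels ran from 179 CPM (Mir377) to 21350 CPM (Mir487b), a 120-fold range, with a median of 559 CPM. The shared letters thus went with no common level. Mir369 and Mir410, printed above and 218 bp apart, differed 25.6-fold and 33.8-fold.

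The replicates ranked the members almost alike, with a Spearman correlation of 0.995 over the 38 members (0.990 over the 376 features tested). To ask whether single members differed between the libraries beyond counting error, counts were compared by an exact two-sided binomial test with Benjamini-Hochberg adjustment over all 376 features with a mean of at least 10 counts. This compares 2 libraries, not conditions, and the day of collection, which differs between the replicates, cannot be told apart from them. Of 35 members tested, 25 passed an adjusted p of 0.05, 7 higher and 18 lower in replicate 2. The background is high: 53.5% of all tested features passed, 17.3% higher and 36.2% lower. The depth of the members bears on this count, since at 100 CPM or above 24 of 31 members passed (7 higher, 17 lower), beside 75.7% of all features at that level, 27.2% higher and 48.5% lower. The members' share was thus near that of other features of like level.

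The direction split depended on the scale. TMM, which scales by the bulk of features rather than by the total, moved all log2 ratios up by 0.17. On that scale 13 members passed as higher and 9 as lower, beside 50.8% of all features, 29.3% higher and 21.5% lower. The median log2 ratio of the members was -0.12 by total counts and 0.052 by TMM, and that of all tested features was -0.14 and 0.031.

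Mir409, Mir487b, Mir1193 and Mir411 had the largest rise in replicate 2 among the members of at least 100 CPM that passed the test. Mir409 rose by a log2 ratio of 0.44 (counting SE 0.012) and Mir487b by 0.32 (0.0073), and both were higher in replicate 2 by TMM too, at 0.62 and 0.49. Mir1193 rose by 0.28 (0.024; adjusted p = 3.59e-30, exact binomial test) and Mir411 by 0.16 (0.0067). The largest falls among these members were in Mir154, Mir494, Mir323 and Mir376c. Mir154 had a log2 ratio of -0.48 (0.021; adjusted p = 3.44e-108, exact binomial test) and Mir494 one of -0.44 (0.047; adjusted p = 2.39e-20). Mir323 was at -0.38 (0.057) and Mir376c at -0.35 (0.036), and all 4 had negative ratios past the threshold by TMM too, at -0.30, -0.27, -0.21 and -0.18. With 2 libraries no exact test over samples can give a p below 0.5, so these calls rest on counting error alone.

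The largest difference of a member that passed was that of Mir1197, at a log2 ratio of -1.35 (0.46; adjusted p = 0.00888, exact binomial test) on 20 and 19 counts. By TMM it was -1.18 and also passed. By total counts, each of the 31 members at 100 CPM or above differed by less than 1.5-fold between the libraries, with log2 ratios from -0.48 to 0.44, while 187 of all 206 features at that level did so and the ratios ran from -4.86 to 1.99. By TMM, Mir409 at 0.62 was past 1.5-fold. The median size of the log2 ratio by total counts was 0.17 for these members and 0.21 for all features. The differences of neighbouring genes showed little relation: the log2 ratios of 34 neighbouring pairs had a Spearman correlation of -0.017, and 20 pairs had the same sign. Mir409 at 0.44 and Mir412 at -0.28, 52 bp apart, moved apart, as did Mir487b at 0.32 and Mir381 at -0.26. Mir412 was no longer past the threshold by TMM, at -0.11. Hairpin GC content and log2 ratio had a Spearman correlation of 0.28 over the 35 tested members and 0.13 over the 376 features, and its part in the differences was not tested.

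**Figure D3:**
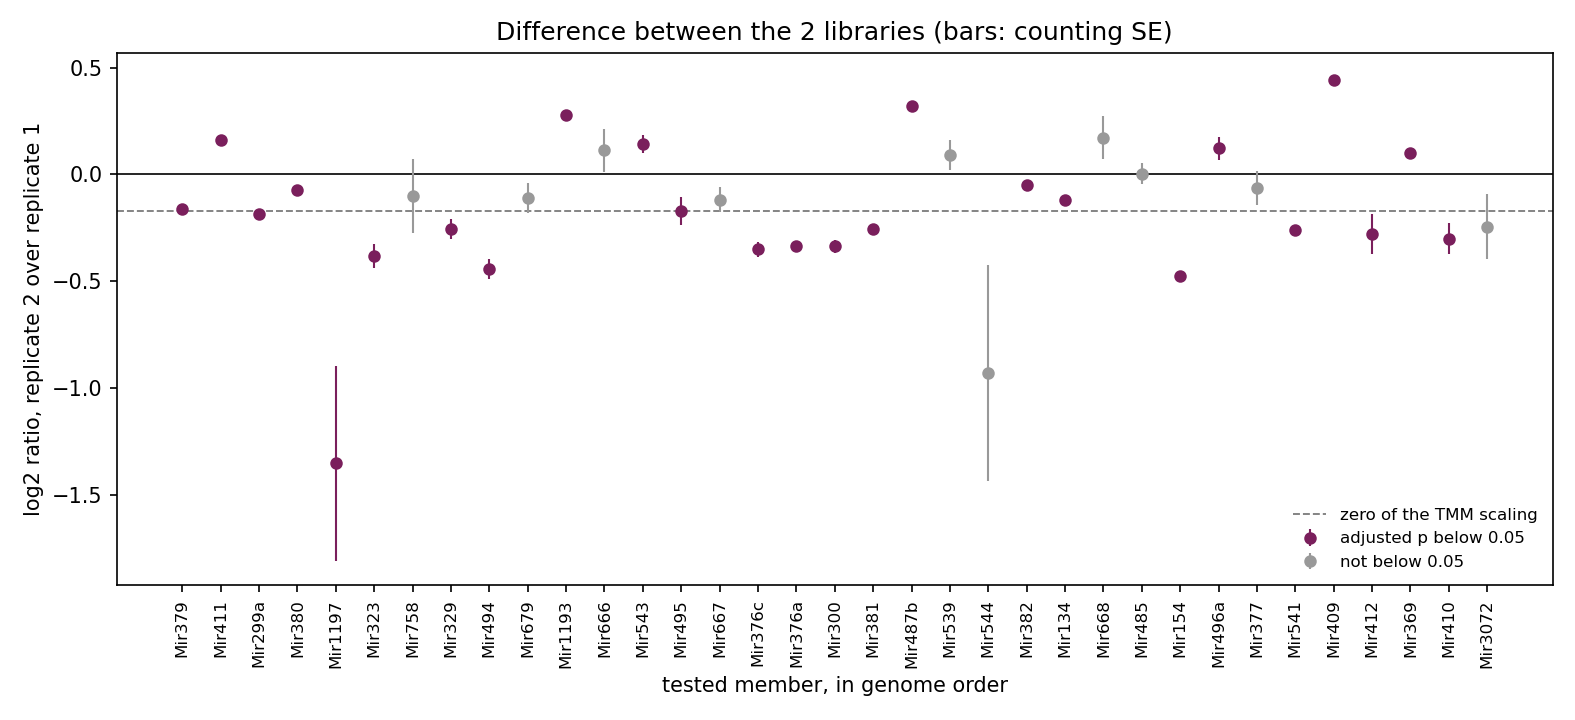
Log2 ratio of replicate 2 over replicate 1 (y axis, scaled by total counts) for the 35 tested members in genome order (x axis), with counting SE as bars. Purple points passed an adjusted p of 0.05 in the exact binomial test, grey points did not, and the dashed line marks where TMM puts zero; Mir409 (0.44) and Mir154 (-0.48) bound the members of at least 100 CPM.

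In summed level, the distal cluster exceeded the proximal miRNA genes of the same domain. These lie from the start of Meg3 to the distal window and include genes antisense to Rtl1. The 19 proximal genes summed to 35768 CPM in replicate 1 and 32971 CPM in replicate 2 (34369 ± 1978). The distal sum, with the 4 genes read from opposite-strand counts, was 3.20-fold and 3.55-fold this value. The distal sum is over 38 genes and the proximal one over 19. The median was 453 CPM for the members and 316 CPM for the proximal genes. Among detected genes alone, it was 483 CPM for the members and higher, at 827 CPM, for the proximal genes. The proximal genes were read from their gene strand only, so the 2 sums were not taken alike. On the gene strand alone, the distal members held 9.21% and 9.48% of the counts and the proximal genes 3.58% and 3.30%. Mir127, the best known of the Rtl1-antisense genes, led them at 12581 and 10962 CPM. Mir431 was at 10411 and 10610 CPM, and Mir434 at 3313 and 3749 CPM. Mir127 was above Mir379 in both libraries, the values of Mir431 and Mir379 overlapped, and both proximal genes were below Mir411 and Mir487b. Between the libraries, 10 of 14 tested proximal genes passed the binomial test (4 higher, 6 lower), beside the background of 53.5%. All 10 were among the 12 proximal genes at 100 CPM or above, where 75.7% of all features passed.

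The tissue label was checked with miRNA genes that mark cell types of the face. Summed means were high for cartilage, epithelium, endothelium, mesenchyme and skeletal muscle, at 42578, 53817, 47919, 14881 and 12530 CPM in that order. Not every gene in these sums was high. Mir206 gave 12271 CPM of the muscle sum and Mir133b 260 CPM. Mir214 gave 13601 CPM of the mesenchymal sum, while Mir199b was at 961 CPM and Mir199a-2 at 286 CPM. In cartilage, Mir455 was at 2491 CPM. The erythroid genes summed to 1229 CPM, and the liver gene was at 9.05 CPM. The 6 neural genes with a row summed to 635 CPM, of which Mir137 gave 631 CPM. Of these 6, 4 (Mir124a-1, Mir124a-2, Mir124a-3 and Mir9-2) were at 0. Reads with several places in the genome are not counted here, which bears on these multicopy genes. Between the libraries the epithelial sum went from 46606 to 61029 CPM and the mesenchymal sum from 17643 to 12119 CPM. The endothelial gene went from 41674 to 54165 CPM. Among the epithelial genes, Mir205 went against the sum, from 8705 to 7509 CPM. Whether these shifts had a part in the members' differences was not tested.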

How the data were processed

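The values were raw read counts per miRNA gene, deposited by the authors for each of 2 libraries and mapped to mm10 with GENCODE M4 miRNA genes, per the labels and the deposited metadata text. An aligner name is not given in the sources used here. For each library there are 3 count columns without a header. They were read as both strands, gene strand and opposite strand from their layout, since the last 2 sum to the first in every gene row, and all levels rest on that reading. The 4 summary rows were left out of totals. Reads placed at several sites (29.8% and 28.5% of 5617037 and 13380839 reads) are not in the gene counts, as the layout of the columns is that of STAR. Gene-strand counts were 48.4% and 49.3% of reads. Names came from GENCODE M21, matched by identifier (1894 of 1973 rows), and sequences from RefSeq. Mir376b was not analysed here.

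CPM used the gene-strand total. The exact binomial test (scipy 1.17.1) ran over 376 features with a mean of at least 10 counts, with totals as offsets and a prior of 0.5 counts for log2 ratios. edgeR 4.0.16 gave TMM and DESeq2 1.42.0 size factors for alternatives. No edgeR quasi-likelihood test was possible with 1 group. The step was tested on simulated data. Members described in full are the 12 highest, the 4 opposite-strand genes, the 4 with the largest ratio in each direction among called members of at least 100 CPM, and those at 0. Others are given by range or were named after their values were seen. The members, lists and tests were chosen with earlier results of these data known. The labels call each replicate a single face but its sex pooled, so whether it is 1 embryo or several is not settled, and the spread between replicates may be partly technical. Alternatives covered the strand column, the 4 opposite-strand genes, the scale, filters, depth, hairpins sharing 20 bases and each replicate.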

Additional observations from a re-analysis of the deposited data

Results flagged for a closer look

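Mir299b, the minus-strand gene at the place of Mir299a, had 19 counts on its own strand in replicate 1 and 50 in replicate 2, in a column that the levels above do not use for this place. Both are above the 3 counts that a count of 0 allows. The other 3 minus-strand genes of the cluster had 0 such counts. Hairpins of Mir299a and Mir299b share 21 bases, and the source of these reads was not tested.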

How the results depend on the processing

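The cluster's share, 11.6% (mean of the replicates), was 11.1% with both strands added, 11.1% with all opposite-strand counts in the total, 9.34% without the 4 opposite-strand genes, 6.55% without the 5 members that share 20 bases with another miRNA hairpin, 12.6% without the highest gene of each library in the total, and 11.4% to 11.7% in the single replicates. In alternatives added after the data were seen, it was 9.13% without Mir411 and 9.44% without Mir487b. Each of these follows from what was taken out of the sum or put into the total. The median member level, 453 CPM, was 357 CPM without the 4 opposite-strand genes and 417 to 478 CPM in single replicates. The levels of Mir382 and Mir380 moved by more than 1 SD, to 4568 and 2835 CPM, with both strands added or with all opposite-strand counts in the total. Members called higher and lower in replicate 2 numbered 7 and 18 by total counts, 13 and 9 by TMM, and 14 and 9 by DESeq2 size factors. Of 112 alternative log2 ratios of 16 members, 104 kept direction and call, among them those with another count filter, which leaves the ratio itself as it is. Another prior, both strands added, or replicate 2 thinned to the depth of replicate 1 changed the ratios little. The count of 104 therefore says little about robustness. Every change of direction or call came with TMM or DESeq2 size factors. Mir379 turned to 0.012 by TMM and 0.022 by DESeq2, Mir382 to 0.12 and 0.13, and Mir380 to 0.10 and 0.11, while Mir299a was no longer called at -0.011 and -0.0010. The cause is the scale itself. The rank correlation of position with level, -0.15, was -0.090 without the members sharing 20 bases and -0.14 to -0.13 in single replicates. The cause was not tested. The proximal share of 3.44% ran from 3.30% to 3.58% in single replicates. Seeds of bases 2 to 7 gave 7 shared groups in place of 5. Differences between the libraries could not be computed without a replicate. No paired analysis was possible because there is 1 group. Mir1197 and Mir544, with at most 20 counts in each library, had wide counting SEs of 0.46 and 0.51, and Gm27379 had too few counts to be tested.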
